A study of Saccharomyces cerevisiae with 23 samples.

Results

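The comparison described here is of budding yeast (Saccharomyces cerevisiae) grown with a statin against yeast grown without one, in the absence of added metal. Its members were the samples that the labels give as statin alone or as no treatment, which were 6 of 17 biological samples, on 6 of 23 arrays. In the statin group 3 cultures of the haploid BY4741a strain with pdr5Δ received 5 µg/mL statin, and in the untreated group 3 cultures of the same strain received none. Both groups lacked PDR5, whose product pumps drugs out of the cell, and both held 0.25 mM EDTA, a metal chelator, and 0.1% DMSO in synthetic complete medium with 2% glucose at 30 °C. Which statin was used is not given in the labels. The other groups of the study carried CuSO4 or ZnSO4, with or without the statin, and were used here to estimate the spread and, at the end, to set the change with statin in metal-supplied cells beside that without metal. For the 18 to 20 hr before the treatment the statin group was already exposed to the drug, growing from an OD600 of 0.09, against 0.01 for untreated cultures. Collection was at an OD600 of about 0.4 with statin, against about 0.8 without, in both cases 50% of the maximum density. The statin, the longer exposure and the culture density therefore cannot be told apart in any comparison below.

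Statins inhibit HMG-CoA reductase, which produces mevalonate. In yeast, mevalonate is the source of farnesyl diphosphate, from which cells make ergosterol, the main membrane sterol, and also dolichol, ubiquinone, heme A and the lipid anchors of prenylated proteins. Yeast cells adjust sterol synthesis through the transcription factors Upc2 and Ecm22, and Upc2 also controls the genes that import sterol from outside when cells grow without oxygen.

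RNA of each sample was labelled with Cy3 and set on a 2-colour array against a Cy5-labelled pool of RNA from all 6 conditions, so that every value is a log2 ratio of a sample's signal over that of the pool. A difference between groups is the difference of their mean log2 ratios, statin minus untreated, and the ± after a value gives its standard error in the limma fit. Genes were called higher or lower at an adjusted p under 0.05 over 5606 tested genes. Each replicate number had its own slide and scan, so a slide held 1 statin and 1 untreated sample. On the first and second slides 96.3 to 98.7% of spots were well above background in these groups, and on the third slide 77.1% in the statin sample and 86.2% in the untreated one. A gene given as measured on 2 of 3 arrays of a group was not well above background on the remaining array, which in nearly all cases was on that slide. Over all tested genes the log2 ratios of statin replicates correlated with each other at r = 0.817 to 0.915, and those of untreated replicates at r = 0.774 to 0.880, as a description over genes that share an array. The labels number the cultures as biological replicates.

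PDR5 was well above background on 0 of 6 arrays, as were HIS3 and LEU2, which are deleted in this strain background. URA3 was above background on 1 array and MET17 on 4, with signals no higher than the 8.15 and 6.62 percentiles of all probes. Of the a-cell genes, STE2, STE6 and MFA1 were measured on 6 of 6 arrays, BAR1 and MFA2 on 5 and AGA2 on 4. Of the alpha-cell genes, SAG1 (alpha-agglutinin) was measured on 6 of 6, STE3 on 5, MF(ALPHA)2 on 4 and MF(ALPHA)1 (alpha-factor) on 2. The highest signal percentiles were 63.9 for STE6, 59.6 for STE2, 35.2 for MFA2, 33.6 for MFA1, 20.8 for BAR1 and 13.6 for AGA2. Those of the alpha-cell genes were 28.0 for STE3, 27.8 for SAG1, 11.9 for MF(ALPHA)1 and 4.78 for MF(ALPHA)2. The sets overlapped.

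Transcripts of 1009 genes rose with statin and those of 1056 genes fell, which is 18.0% and 18.8% of the genes tested, or 36.8% in either direction. Counts of called members in the gene groups below are to be read against these shares of all genes. Rises over 2-fold were seen for 218 genes and falls over 2-fold for 216 genes. Among the greatest changes the falls outnumbered the rises, with 38 genes lower by over 8-fold and 10 higher by over 8-fold. Of the 2065 called genes, 2058 moved the same way on all 3 slides. The calls rest on these same slides, so this agreement is largely built in. The 3 statin samples lay all on one side of the 3 untreated samples for 2898 genes, 51.7% of those tested. The median difference over all tested genes was -0.01. Of the called genes named below, 43 missed the threshold in at least 1 of the fits that left out a single culture, with their direction kept in each. They were AAD10, ARV1, BTS1, CAT5, CLN1, COQ10, COQ5, CTT1, CUP1-1, DBP2, DIP5, ENA1, ERO1, FAA1, FUR1, GCD6, GSH1, GUS1, HEM14, HSP30, IRE1, KES1, LEU3, MFA1, NPC2, NSG1, ORM2, OSH7, PDC6, PHM7, PRY2, RAM2, RSB1, TAT2, THI11, TIR2, TPS2, TSL1, TYS1, VTC4, WSC2, YEF3 and YEH2. Nearly all of them had differences under 1.1 on the log2 scale, the exceptions being GSH1, HSP30 and PDC6, whose log2 differences were -1.49 and -3.0 without statin replicate 2 for GSH1 and PDC6, and 0.93 without statin replicate 1 for HSP30.

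**Figure D1:**
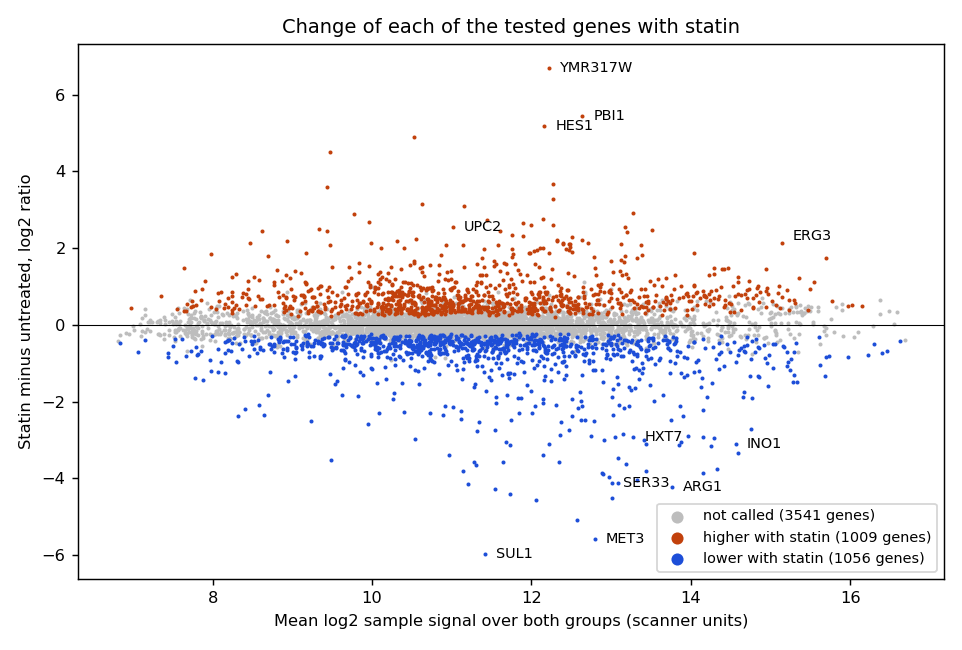
The log2 difference, statin minus untreated, of each of the 5606 tested genes is plotted against its mean log2 sample signal, with genes called higher in orange, genes called lower in blue and the others in grey. YMR317W, PBI1 and HES1 stand at the top and SUL1 and MET3 at the bottom, and called genes are found from dim to bright probes.

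Genes of sterol import, of sterol handling and of the wall of cells grown without oxygen were among the greatest rises with statin, and genes of ergosterol synthesis also rose, by less. PBI1 had log2 ratios of 1.84, 1.48 and 1.71 in statin cultures, against -3.67, -3.81 and -3.81 in untreated cultures. That is a 43.4-fold rise (log2 difference 5.44 ± 0.13, adjusted p = 3.06e-13). HES1, which encodes an oxysterol-binding protein homologue that transfers sterols between membranes, had log2 ratios of 1.72, 1.66 and 2.19 in statin cultures, against -3.26, -3.40 and -3.35 in untreated cultures, a rise of 36.5-fold (log2 difference 5.19 ± 0.18, adjusted p = 4.4e-11). In both genes the lowest statin sample was more than 4 log2 units above the highest untreated sample. YMR317W, known by its systematic name only, had the greatest rise of all, with log2 ratios of 2.24, 2.33 and 2.68 in statin cultures, against -4.04, -4.12 and -4.64 in untreated cultures (log2 difference 6.68 ± 0.26, adjusted p = 1.66e-10).

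Sterol importers rose together. AUS1 and PDR11 encode the 2 ABC transporters that bring exogenous sterol into anaerobic cells. AUS1 had log2 ratios of 1.88, 1.39 and 1.80 in statin cultures, against -0.99, -1.07 and -1.03 in untreated cultures (log2 difference 2.72 ± 0.13, adjusted p = 1.67e-09). PDR11 had log2 ratios of 1.15, 1.16 and 1.28 in statin cultures, against -1.60, -1.40 and -1.45 in untreated cultures (log2 difference 2.68 ± 0.14, adjusted p = 3e-09), and the replicates of each group lay within a narrow range that did not approach the other group. Mannoproteins of the anaerobic cell wall moved the same way. The log2 difference was 3.59 for DAN1, 3.27 for TIR3, 3.15 for TIR4, 2.09 for DAN4, 0.80 for TIR2 and 0.77 for TIR1. DAN1 was measured on 2 of 3 untreated arrays. All 11 tested members of the sterol uptake and anaerobic wall list rose, against 18.0% of all tested genes, with a median of 2.68 and slide medians of 2.75, 2.46 and 2.73. The lists were chosen with earlier results of these data known, so such a count may be partly built in.

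Seripauperins are small wall mannoproteins of a subtelomeric gene family, most of which is induced in anaerobic cells. All 24 tested seripauperin genes rose, by log2 differences of 0.72 to 2.61 with a median of 1.96. PAU24 is also a member of the sterol uptake and anaerobic wall list, so the counts of these lists are not separate. PAU5 had log2 ratios of 1.91, 0.84 and 1.53 in statin cultures, against -1.0, -1.30 and -1.25 in untreated cultures. Their sequences are near-identical, so probes may share signal and the members are not independent measurements. ANB1, the anaerobic copy of the translation factor eIF5A, also rose (log2 difference 0.92 ± 0.21, adjusted p = 0.00367), measured on 2 of 3 statin arrays. Other genes with anaerobic forms did not follow. HEM13, which encodes the oxygen-dependent coproporphyrinogen oxidase, was near its untreated level (log2 difference 0.05 ± 0.18, adjusted p = 0.838, 2 of 3 statin arrays), and so was AAC3, an anaerobic ADP/ATP carrier gene (log2 difference -0.23 ± 0.18, adjusted p = 0.331, 2 of 3 statin arrays). Of 9 tested genes in the list of hypoxic and aerobic partners, 1 rose and 1 fell.

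Ergosterol synthesis from squalene rose almost as a unit. Of 16 tested genes, 15 rose and none fell, with a median of 1.08 and slide medians of 0.87, 1.22 and 1.19. ERG3, a sterol desaturase gene, had log2 ratios of 0.67, 0.74 and 0.99 in statin cultures, against -1.43, -1.29 and -1.25 in untreated cultures, a 4.37-fold rise (log2 difference 2.13 ± 0.15, adjusted p = 9.55e-08). ERG6, the sterol methyltransferase gene, had log2 ratios of 0.86, 0.88 and 1.41 in statin cultures, against -0.72, -1.11 and -0.49 in untreated cultures (log2 difference 1.82 ± 0.19, adjusted p = 3.34e-06). ERG25, the gene of a sterol methyl oxidase, had log2 ratios of 0.82, 0.72 and 0.72 in statin cultures, against -0.89, -0.98 and -1.10 in untreated cultures (log2 difference 1.74 ± 0.14, adjusted p = 2.28e-07). In all 3 genes the groups were more than 1 log2 unit apart, and ERG2, the sterol isomerase gene, followed (log2 difference 1.47 ± 0.11, adjusted p = 1.62e-07). ERG11, the lanosterol demethylase gene and the target of azole antifungals, had log2 ratios of -0.75, -0.46 and -0.46 in statin cultures, against -1.55, -1.68 and -1.19 in untreated cultures (log2 difference 0.92 ± 0.19, adjusted p = 0.00136). The gene that missed the threshold, ERG28, was named after its value was seen. It encodes a scaffold protein of the pathway and had a log2 difference of 0.48 with adjusted p = 0.0678.

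The mevalonate pathway, which holds the statin's target, changed less. HMG1, the gene of the main HMG-CoA reductase, had log2 ratios of 0.64, 0.66 and 0.61 in statin cultures, against 0.04, -0.05 and 0.23 in untreated cultures (log2 difference 0.56 ± 0.08, adjusted p = 0.000103), a rise of 1.47-fold. HMG2, the gene of the second HMG-CoA reductase, had log2 ratios of 0.06, 0.00 and -0.14 in statin cultures, against 0.09, 0.03 and 0.17 in untreated cultures, and the groups overlapped (log2 difference -0.12 ± 0.09, adjusted p = 0.336, 95% interval -0.32 to 0.08). The reductase genes therefore differed in whether a change was called, although the difference between them was not tested. MVD1, the mevalonate diphosphate decarboxylase gene, rose most in the pathway with log2 ratios of 0.22, 0.99 and 0.74 in statin cultures, against -0.24, -0.19 and -0.34 in untreated cultures (log2 difference 0.91 ± 0.19, adjusted p = 0.00195), and ERG13, the HMG-CoA synthase gene, rose too (log2 difference 0.61 ± 0.15, adjusted p = 0.00594). ERG10 (log2 difference 0.40 ± 0.16, adjusted p = 0.0658), ERG8 (log2 difference 0.42 ± 0.20, adjusted p = 0.113), ERG12 (log2 difference -0.10 ± 0.11, adjusted p = 0.495), IDI1 (log2 difference -0.23 ± 0.10, adjusted p = 0.084) and ERG20 (log2 difference -0.03 ± 0.17, adjusted p = 0.918), which encode the acetoacetyl-CoA thiolase, phosphomevalonate kinase, mevalonate kinase, isopentenyl diphosphate isomerase and farnesyl diphosphate synthase, did not pass. With the replicate number, and so the slide, as a block, ERG10 passed (adjusted p = 0.0151). Without statin replicate 1, which was the lowest of its group in both, ERG10 and ERG8 passed with log2 differences of 0.61 and 0.61. Leaving out the lowest statin value raises a difference by construction, so this adds no support for a rise. In all, 3 of 9 tested genes of the pathway rose and none fell, with slide medians of -0.06, 0.43 and 0.38.

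**Figure D2:**
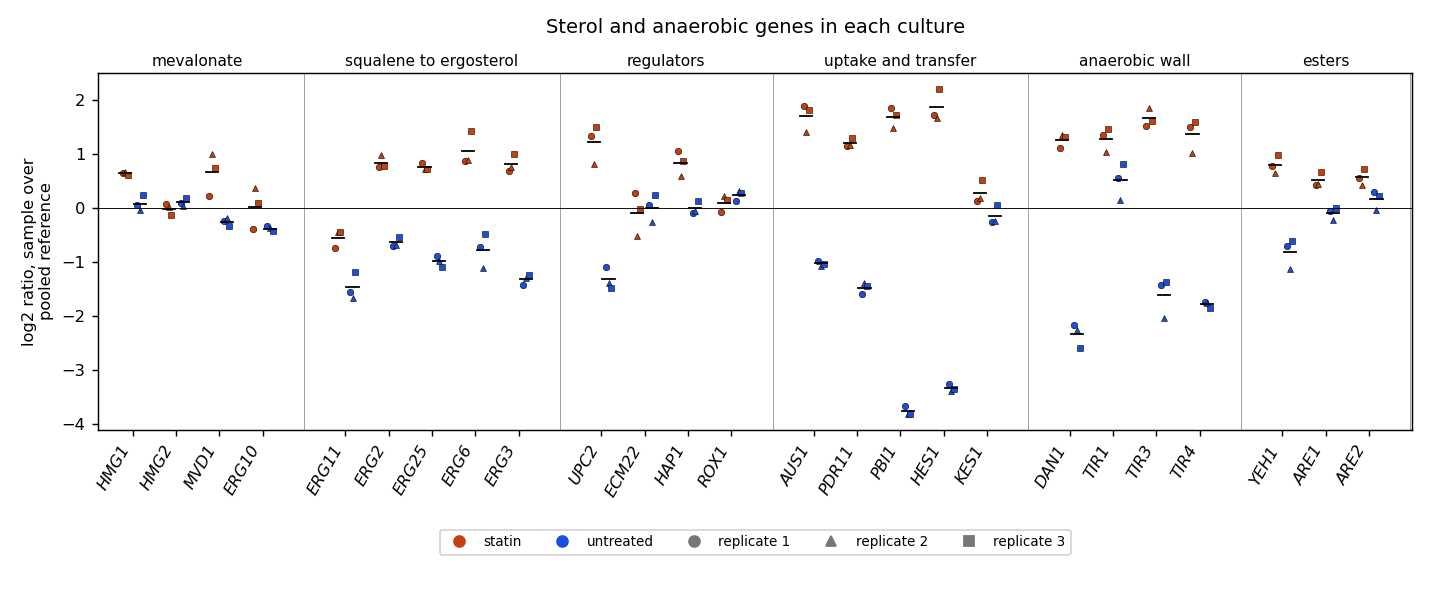
Log2 ratios of single cultures over the pooled reference are shown for sterol and anaerobic genes, statin in orange left of untreated in blue, with 1 symbol for each replicate number and a bar at the group mean. Statin and untreated values separate widely for UPC2, AUS1, PDR11, PBI1, HES1, DAN1, TIR3, TIR4 and the ergosterol genes, and they overlap for HMG2, ECM22 and ROX1.

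UPC2, the gene of the sterol-sensing activator, had log2 ratios of 1.33, 0.81 and 1.50 in statin cultures, against -1.09, -1.40 and -1.49 in untreated cultures, a 5.82-fold rise (log2 difference 2.54 ± 0.20, adjusted p = 1.71e-07). Its paralogue ECM22 had log2 ratios of 0.27, -0.53 and -0.03 in statin cultures, against 0.04, -0.26 and 0.23 in untreated cultures, with overlapping groups (log2 difference -0.10 ± 0.19, adjusted p = 0.72, 95% interval -0.51 to 0.32). HAP1, which encodes a heme-responsive activator of ergosterol genes, rose (log2 difference 0.84 ± 0.16, adjusted p = 0.000792), and so did DAP1, a heme-binding partner of Erg11 (log2 difference 0.66 ± 0.10, adjusted p = 0.000122, 2 of 3 statin arrays). ROX1, the gene of the repressor of hypoxic genes, was not called (log2 difference -0.15 ± 0.12, adjusted p = 0.332). NSG1, which encodes a protein that stabilises Hmg2, fell (log2 difference -0.51 ± 0.16, adjusted p = 0.0218), as did ARV1, a gene of sterol distribution (log2 difference -0.41 ± 0.12, adjusted p = 0.0119, 2 of 3 statin arrays). Of the 15 tested regulators, 3 rose and 2 fell, a share near that of all genes.

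Sterol esters are the stored form of sterol in lipid droplets. Both acyl-CoA:sterol acyltransferase genes were slightly higher with statin, ARE1 with log2 ratios of 0.43, 0.44 and 0.66 in statin cultures, against -0.05, -0.23 and 0.00 in untreated cultures and a call (log2 difference 0.60 ± 0.12, adjusted p = 0.00128), and ARE2 without one (log2 difference 0.41 ± 0.16, adjusted p = 0.0621), although ARE2 passed with the replicate number as a block (adjusted p = 0.00337). The sterol ester hydrolase genes moved apart. YEH1 had log2 ratios of 0.77, 0.65 and 0.97 in statin cultures, against -0.70, -1.14 and -0.61 in untreated cultures and rose (log2 difference 1.61 ± 0.15, adjusted p = 1.44e-06), YEH2 fell slightly (log2 difference -0.28 ± 0.09, adjusted p = 0.0197, 2 of 3 statin arrays), and TGL1 was not called (log2 difference -0.20 ± 0.10, adjusted p = 0.11). The genes of sterol acetylation and export, ATF2 (log2 difference 1.38 ± 0.19, adjusted p = 5.22e-05), PRY1 (log2 difference 0.99 ± 0.24, adjusted p = 0.00532) and PRY2 (log2 difference 0.87 ± 0.30, adjusted p = 0.0318), rose, whereas PRY3 fell (log2 difference -0.68 ± 0.17, adjusted p = 0.0059) and the deacetylase gene SAY1 was not called (log2 difference -0.17 ± 0.12, adjusted p = 0.311). Among 14 tested genes of oxysterol-binding and sterol-transfer proteins, HES1 and, by far less, KES1 (log2 difference 0.43 ± 0.15, adjusted p = 0.0341) rose. SIP3 (log2 difference -0.80 ± 0.09, adjusted p = 9.46e-06), LAM4 (log2 difference -0.73 ± 0.15, adjusted p = 0.00152), NPC2 (log2 difference -0.34 ± 0.12, adjusted p = 0.0412) and OSH7 (log2 difference -0.30 ± 0.09, adjusted p = 0.0213) fell, and the change of HES1 was the greatest of the 14 tested.

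The other branches that draw on mevalonate gave small changes. In protein prenylation, which attaches farnesyl or geranylgeranyl groups to proteins such as Ras, BTS1 (geranylgeranyl diphosphate synthase) rose slightly (log2 difference 0.22 ± 0.08, adjusted p = 0.0338), RAM2 (a shared prenyltransferase subunit) fell (log2 difference -0.32 ± 0.11, adjusted p = 0.04) and STE14 (the carboxyl methyltransferase) fell (log2 difference -0.69 ± 0.15, adjusted p = 0.00239, 2 of 3 statin arrays). The other 7 of 10 tested members were not called. Ubiquinone synthesis had 4 falls among 11 tested genes, in COQ6 (log2 difference -0.59 ± 0.12, adjusted p = 0.00165), COQ10 (log2 difference -0.48 ± 0.16, adjusted p = 0.0257, 2 of 3 statin arrays), COQ5 (log2 difference -0.44 ± 0.15, adjusted p = 0.0286) and CAT5 (log2 difference -0.44 ± 0.12, adjusted p = 0.0114). COQ1, the gene of the polyprenyl diphosphate synthase that competes for the isoprenoid precursor, was at 0.00. In the dolichol and N-glycan precursor list 7 of 21 fell and 2 rose. ALG7, which encodes the first enzyme that builds the sugar chain on dolichol, fell most (log2 difference -1.07 ± 0.25, adjusted p = 0.00333). SRT1, a cis-prenyltransferase gene of dolichol synthesis, rose (log2 difference 0.69 ± 0.17, adjusted p = 0.00568, 2 of 3 statin arrays). In the heme list, where heme A is the part that draws on mevalonate, 1 of 10 tested genes rose and 2 fell. HEM14 rose (log2 difference 0.53 ± 0.14, adjusted p = 0.00999) and HEM15, the ferrochelatase gene, fell (log2 difference -0.67 ± 0.16, adjusted p = 0.00372). COX15, a gene of heme A synthesis, fell (log2 difference -0.66 ± 0.14, adjusted p = 0.0016). The other 7 were not called, COX10 among them.

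Phospholipid genes fell broadly. Of 22 tested genes, 17 fell and none rose, against 18.8% of all genes lower, with a median of -0.67 and slide medians of -0.78, -0.51 and -0.74. INO1, the inositol phosphate synthase gene and the standard reporter of inositol-responsive control, had log2 ratios of -2.75, -1.31 and -2.15 in statin cultures, against 1.02, 1.06 and 1.04 in untreated cultures, a fall of 8.62-fold (log2 difference -3.11 ± 0.44, adjusted p = 6.71e-05). The inositol permease gene ITR1 (log2 difference -1.75 ± 0.23, adjusted p = 4.01e-05), the phosphatidylserine synthase gene CHO1 (log2 difference -1.39 ± 0.15, adjusted p = 5.27e-06) and the choline permease gene HNM1 (log2 difference -1.37 ± 0.15, adjusted p = 5.67e-06) also fell. The untreated samples of INO1 were within 0.1 of each other, and the statin samples spread over more than 1 log2 unit without reaching them.

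Fatty acid synthesis had 9 falls and no rise among 13 tested genes. ELO1, an elongase gene, had log2 ratios of -1.38, -2.03 and -1.86 in statin cultures, against 0.24, -0.00 and 0.45 in untreated cultures (log2 difference -1.99 ± 0.19, adjusted p = 1.31e-06), and ELO3 (log2 difference -0.93 ± 0.21, adjusted p = 0.00273), IFA38 (log2 difference -0.68 ± 0.11, adjusted p = 0.000226) and FAA1 (log2 difference -0.61 ± 0.18, adjusted p = 0.0163) followed. OLE1, the gene of the fatty acid desaturase, had log2 ratios of 0.98, -0.71 and 0.09 in statin cultures, against -0.13, -0.12 and -0.33 in untreated cultures, so the statin replicates spread on both sides of the untreated ones (log2 difference 0.31 ± 0.39, adjusted p = 0.559). Sphingolipid synthesis split, with 5 rises and 6 falls of 17. ORM2, a regulator of serine palmitoyltransferase, rose (log2 difference 0.53 ± 0.15, adjusted p = 0.0143), whereas the hydroxylase gene SCS7 (log2 difference -0.92 ± 0.12, adjusted p = 2.08e-05) and the ceramide synthase gene LAG1 (log2 difference -0.88 ± 0.12, adjusted p = 4.46e-05) fell. YSR3, which encodes a phosphatase of sphingoid base phosphates, had log2 ratios of 1.50, 1.41 and 1.78 in statin cultures, against -1.64, -1.52 and -1.43 in untreated cultures (log2 difference 3.10 ± 0.15, adjusted p = 1.67e-09), while its paralogue LCB3 fell (log2 difference -0.61 ± 0.09, adjusted p = 6e-05). LCB5, a sphingoid base kinase gene, rose (log2 difference 0.95 ± 0.16, adjusted p = 0.000263), and its paralogue LCB4 was not called (log2 difference -0.19 ± 0.12, adjusted p = 0.253). RSB1, a gene of sphingoid base export, fell (log2 difference -0.90 ± 0.26, adjusted p = 0.0146, 2 of 3 statin arrays). Neutral lipid storage (2 falls of 11) and fatty acid oxidation (1 rise and 3 falls of 15) had a share of falls near that of all genes and a lower share of rises.

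The deepest falls with statin were in sulfur assimilation. Yeast takes up sulfate, reduces it to sulfide in several steps and makes homocysteine, methionine, cysteine and S-adenosylmethionine, and most of these genes are activated by Met4 with its partners Cbf1, Met28, Met31 and Met32. All 10 tested genes from sulfate to sulfide fell, with a median of -4.14 and slide medians of -4.08, -3.97 and -4.36. SUL1, a sulfate permease gene, had log2 ratios of -5.11, -5.33 and -5.04 in statin cultures, against 0.65, 0.98 and 0.85 in untreated cultures (log2 difference -5.99 ± 0.99, adjusted p = 0.000271). It was measured on 2 of 3 statin arrays, so the size of its fall is uncertain. The other sulfate permease gene, SUL2, had log2 ratios of -4.46, -4.81 and -4.81 in statin cultures, against 0.29, 0.33 and 0.60 in untreated cultures (log2 difference -5.10 ± 0.88, adjusted p = 0.000376). MET3, the ATP sulfurylase gene, had log2 ratios of -5.31, -5.60 and -5.22 in statin cultures, against 0.28, -0.19 and 0.52 in untreated cultures (log2 difference -5.58 ± 0.98, adjusted p = 0.00042). In each of these genes the replicates of a group lay within 1 log2 unit of each other and the groups were more than 4 units apart. Their standard errors near 1 use the spread shared over all 17 samples. Fitted on the 6 samples alone, they were 0.13 for SUL1, 0.14 for SUL2 and 0.18 for MET3. The sulfite reductase genes MET5 (log2 difference -4.52 ± 0.88, adjusted p = 0.000985) and MET10 (log2 difference -4.13 ± 0.80, adjusted p = 0.000956), the adenylylsulfate kinase gene MET14 (log2 difference -3.85 ± 0.69, adjusted p = 0.00054) and the phosphoadenylylsulfate reductase gene MET16 (log2 difference -4.14 ± 0.61, adjusted p = 9.51e-05, 2 of 3 statin arrays) fell by over 8-fold.

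Downstream of sulfide the falls continued. MET6, the methionine synthase gene, had log2 ratios of -3.92, -2.96 and -3.27 in statin cultures, against 0.40, 0.23 and 0.83 in untreated cultures (log2 difference -3.87 ± 0.50, adjusted p = 2.58e-05). SAM1 and SAM2, the S-adenosylmethionine synthetase genes, fell with log2 differences of -2.95 and -2.92, and CYS3 and CYS4, the transsulfuration genes that make cysteine, with -3.34 and -3.17. STR3, the cystathionine beta-lyase gene of the opposite route, fell too (log2 difference -4.29 ± 0.68, adjusted p = 0.000174, 2 of 3 statin arrays). In glutathione synthesis GSH1 fell (log2 difference -1.61 ± 0.48, adjusted p = 0.0161) and GSH2 was not called (log2 difference -0.38 ± 0.20, adjusted p = 0.154), but GSH2 passed with the block (adjusted p = 0.0452). SAH1, which breaks down S-adenosylhomocysteine, was not called either (log2 difference -0.38 ± 0.18, adjusted p = 0.0988) but passed with the block (adjusted p = 0.0377), and MET12, a methylenetetrahydrofolate reductase gene, fell slightly (log2 difference -0.30 ± 0.08, adjusted p = 0.00837). Of 9 tested genes of the methionine and S-adenosylmethionine cycle 8 fell, and of 9 in transsulfuration and glutathione 7 fell.

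Scavenging genes, which recover sulfur from organic compounds, fell with the rest. SEO1, a permease gene, had log2 ratios of -3.57, -4.05 and -4.32 in statin cultures, against 0.67, 0.26 and 0.86 in untreated cultures (log2 difference -4.58 ± 0.79, adjusted p = 0.000365, 2 of 3 statin arrays). The log2 difference was -4.40 for JLP1, the sulfonate dioxygenase gene, -3.96 for YCT1, a cysteine transporter gene, and -4.06 and -3.66 for SAM3 and MMP1, permease genes of S-adenosylmethionine and S-methylmethionine (JLP1 and MMP1 on 2 of 3 statin arrays). It was -2.71 for MUP1 and -3.09 for MUP3, the methionine permease genes. 10 of 11 tested members fell. Regulators were divided. MET4 had log2 ratios of -0.17, -0.10 and -0.22 in statin cultures, against -0.01, 0.23 and -0.08 in untreated cultures and was not called (log2 difference -0.21 ± 0.13, adjusted p = 0.204), nor were CBF1 (log2 difference -0.17 ± 0.17, adjusted p = 0.446) and MET31 (log2 difference 0.52 ± 0.23, adjusted p = 0.0896), of which MET31 passed as higher with the block (adjusted p = 0.0334). MET28 (log2 difference -3.62 ± 0.56, adjusted p = 0.000142), MET32 (log2 difference -3.80 ± 0.71, adjusted p = 0.000688, 2 of 3 statin arrays) and MET30, the gene of the ubiquitin ligase subunit that restrains Met4 (log2 difference -1.58 ± 0.46, adjusted p = 0.0143), fell. MET17, whose gene is deleted in the BY4741 background, was not tested.

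**Figure D3:**
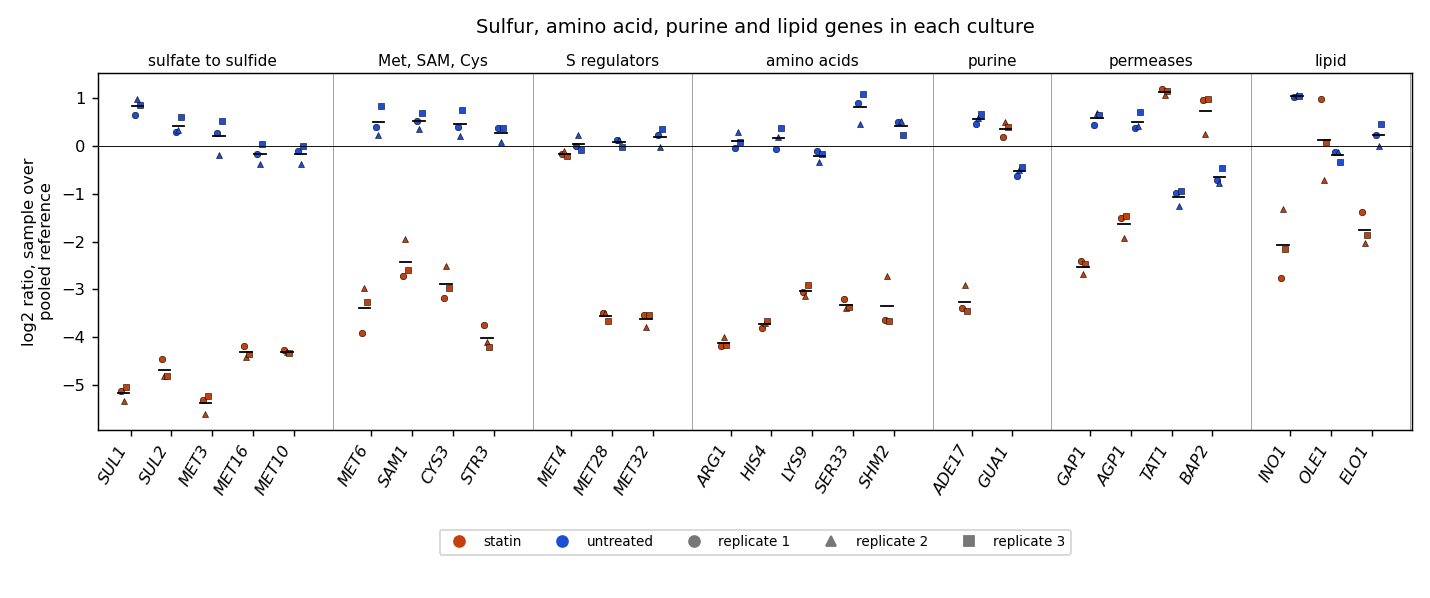
Log2 ratios of single cultures over the pooled reference are shown for sulfur, amino acid, purine, permease and lipid genes, statin in orange left of untreated in blue, with 1 symbol for each replicate number and a bar at the group mean. The 3 statin values sit several log2 units below the untreated ones from SUL1 to STR3 and from ARG1 to ADE17, those of MET4 lie just below and those of OLE1 on both sides of the untreated values, and those of TAT1, BAP2 and GUA1 lie above.

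Amino acid synthesis fell across pathways. All 10 arginine genes fell (median -2.19, slide medians -2.03, -2.29 and -2.40). ARG1, the argininosuccinate synthetase gene, had log2 ratios of -4.18, -4.0 and -4.16 in statin cultures, against -0.04, 0.29 and 0.07 in untreated cultures, an 18.6-fold fall (log2 difference -4.22 ± 0.29, adjusted p = 6.39e-08). The log2 difference was -3.58 for ARG3 (2 of 3 statin arrays), -3.12 for ARG56, also written ARG5,6, and -2.99 for ARG4. HIS4, a histidine gene, had log2 ratios of -3.80, -3.70 and -3.65 in statin cultures, against -0.05, 0.19 and 0.37 in untreated cultures (log2 difference -3.89 ± 0.22, adjusted p = 7.32e-09), and 5 of 6 tested histidine genes fell, HIS6 being the exception (log2 difference 0.23 ± 0.14, adjusted p = 0.235). For lysine 8 of 9 fell (median -1.60), led by LYS9 with log2 ratios of -3.06, -3.13 and -2.92 in statin cultures, against -0.10, -0.34 and -0.17 in untreated cultures (log2 difference -2.83 ± 0.28, adjusted p = 2.16e-06). For the branched-chain amino acids 8 of 11 fell and the regulator gene LEU3 rose by 0.28, with LEU4 lowest (log2 difference -1.63 ± 0.17, adjusted p = 2.47e-06).

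Serine, glycine and one-carbon genes fell too, with a median of -1.70. SER33, which encodes the first enzyme of serine synthesis from a glycolytic intermediate, had log2 ratios of -3.20, -3.38 and -3.36 in statin cultures, against 0.89, 0.45 and 1.08 in untreated cultures (log2 difference -4.12 ± 0.68, adjusted p = 0.000246). SHM2, the cytosolic serine hydroxymethyltransferase gene, fell (log2 difference -3.76 ± 0.36, adjusted p = 1.56e-06), as did GCV2 (log2 difference -3.14 ± 0.27, adjusted p = 5.05e-07) and GCV1 (log2 difference -2.47 ± 0.30, adjusted p = 1.83e-05) of the glycine cleavage system. 12 of 14 tested genes of this list fell and none rose. Aromatic amino acid genes gave 12 falls of 15, with the catabolic ARO10 (log2 difference -2.77 ± 0.26, adjusted p = 1.14e-06) and ARO9 (log2 difference -2.74 ± 0.40, adjusted p = 8.57e-05) lowest. In the glutamate, glutamine, asparagine and proline list, 6 of 14 fell, GDH1 most (log2 difference -1.24 ± 0.26, adjusted p = 0.00153). The mRNA of GCN4, the translationally controlled activator of amino acid genes, had log2 ratios of 0.01, -0.44 and -0.39 in statin cultures, against -0.27, -0.35 and -0.08 in untreated cultures and was not called (log2 difference -0.03 ± 0.17, adjusted p = 0.889). The arrays measure its mRNA and not its protein.

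Permease genes went both ways. GAP1, the general amino acid permease gene, had log2 ratios of -2.41, -2.69 and -2.46 in statin cultures, against 0.44, 0.69 and 0.65 in untreated cultures (log2 difference -3.11 ± 0.22, adjusted p = 6.33e-08), and AGP1 (log2 difference -2.13 ± 0.23, adjusted p = 5.69e-06), PUT4 (log2 difference -1.51 ± 0.27, adjusted p = 0.000479, 2 of 3 statin arrays) and DIP5 (log2 difference -0.94 ± 0.28, adjusted p = 0.0152) fell with it. TAT1, a tyrosine and tryptophan permease gene, had the opposite pattern with log2 ratios of 1.19, 1.07 and 1.15 in statin cultures, against -0.98, -1.25 and -0.95 in untreated cultures (log2 difference 2.20 ± 0.40, adjusted p = 0.00055). BAP2, a branched-chain amino acid permease gene, had log2 ratios of 0.96, 0.25 and 0.99 in statin cultures, against -0.71, -0.76 and -0.45 in untreated cultures (log2 difference 1.37 ± 0.20, adjusted p = 8.49e-05), and TAT2 rose (log2 difference 0.74 ± 0.25, adjusted p = 0.0323). Of 17 tested permease genes 3 rose and 6 fell, 17.6% and 35.3%, against 18.0% and 18.8% of all tested genes. Genes of poor nitrogen sources fell in 10 of 20 cases, among them the ammonium permease gene MEP2 (log2 difference -2.53 ± 0.18, adjusted p = 6.39e-08), DAL3 (log2 difference -2.13 ± 0.18, adjusted p = 3.62e-07) and the repressor gene DAL80 (log2 difference -1.82 ± 0.28, adjusted p = 0.000142, 2 of 3 statin arrays). The arginine catabolic genes CAR1 (log2 difference 1.97 ± 0.20, adjusted p = 2.73e-06) and CAR2 (log2 difference 0.92 ± 0.18, adjusted p = 0.000917) rose, opposite in direction to the arginine synthesis genes.

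Purine synthesis fell in 10 of 14 tested genes (median -1.35). ADE17, an enzyme gene of the last steps to IMP, had log2 ratios of -3.39, -2.92 and -3.44 in statin cultures, against 0.45, 0.58 and 0.66 in untreated cultures, a 14.1-fold fall (log2 difference -3.81 ± 0.31, adjusted p = 3.59e-07), and ADE12, of the branch to AMP, fell as well (log2 difference -2.48 ± 0.21, adjusted p = 4.81e-07). GUA1, of the branch to GMP, had log2 ratios of 0.18, 0.49 and 0.40 in statin cultures, against -0.63, -0.50 and -0.45 in untreated cultures and rose (log2 difference 0.88 ± 0.24, adjusted p = 0.0085). Pyrimidine genes did not fall with the purine genes. URA1 (log2 difference 1.31 ± 0.22, adjusted p = 0.000267), URA2 (log2 difference 1.19 ± 0.25, adjusted p = 0.00196), URA7 (log2 difference 1.18 ± 0.31, adjusted p = 0.00735) and the uracil permease gene FUR4 (log2 difference 1.01 ± 0.18, adjusted p = 0.000605) rose, and FUR1, of uracil salvage, fell (log2 difference -0.68 ± 0.24, adjusted p = 0.0353). Among vitamin genes the log2 difference was -2.90 for BNA3, of NAD synthesis, -2.04 for the biotin permease gene VHT1, -1.87 for the nicotinic acid permease gene TNA1 and -1.84 for the biotin synthase gene BIO2 (2 of 3 statin arrays). In all, 11 of 19 of that list fell. Thiamine genes had 5 rises and 3 falls of 16, 31.2% and 18.8%, against 18.0% and 18.8% of all tested genes. THI5, THI11 and THI12 are near-identical and may share signal.

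Of 16 tested hexose transporter and sensor genes 7 rose and 2 fell, 43.8% and 12.5%, against 18.0% and 18.8% of all tested genes. HXT1, a low-affinity transporter gene induced by high glucose, had log2 ratios of 0.99, 1.30 and 1.18 in statin cultures, against -0.76, -0.88 and -0.51 in untreated cultures (log2 difference 1.87 ± 0.28, adjusted p = 0.000111). HXT2 (log2 difference 2.22 ± 0.27, adjusted p = 1.76e-05) and HXT5 (log2 difference 2.47 ± 0.44, adjusted p = 0.000488), transporter genes of low glucose and of slow growth, also rose. The high-affinity transporter gene HXT7 had log2 ratios of -1.42, -2.14 and -2.10 in statin cultures, against 0.97, 1.12 and 1.02 in untreated cultures and fell 7.58-fold (log2 difference -2.92 ± 0.38, adjusted p = 2.85e-05). HXT6 fell by about as much (log2 difference -2.90 ± 0.33, adjusted p = 8.68e-06), but it is near-identical to HXT7 and may share its signal. The glucose-induced repressor genes MIG2 (log2 difference 1.33 ± 0.11, adjusted p = 3.18e-07) and MIG3 (log2 difference 0.98 ± 0.10, adjusted p = 3.75e-06) rose. Within glycolysis and fermentation 3 genes rose and 9 fell of 25. PDC6, a minor pyruvate decarboxylase gene known to be induced when sulfur is short, had log2 ratios of -1.31, -3.47 and -2.82 in statin cultures, against 0.65, 1.04 and 1.11 in untreated cultures and fell 11-fold (log2 difference -3.46 ± 1.0, adjusted p = 0.0134), whereas PDC1, the main pyruvate decarboxylase gene, rose by 0.50 and ADH1 by 0.61.

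In the pentose phosphate pathway 3 of 11 tested genes rose and 4 fell. ZWF1 (log2 difference -1.41 ± 0.33, adjusted p = 0.00358), SOL3 (log2 difference -1.18 ± 0.10, adjusted p = 3.68e-07), GND1 (log2 difference -0.83 ± 0.13, adjusted p = 0.00021) and TAL1 (log2 difference -1.19 ± 0.15, adjusted p = 2.81e-05) fell, and the minor paralogues TKL2 (log2 difference 2.07 ± 0.48, adjusted p = 0.00358) and NQM1 (log2 difference 1.73 ± 0.30, adjusted p = 0.000344) rose. Respiration genes encoded in the nucleus fell modestly. Of 20 tested genes of complexes III and IV and cytochrome c, 17 fell and none rose (median -0.59, slide medians -0.60, -0.52 and -0.71), with QCR7 (-0.96, 2 of 3 statin arrays), CYT1 (-0.91) and COX6 (-0.86) lowest. In the TCA cycle 14 of 23 fell, and MDH2, the cytosolic malate dehydrogenase gene, rose (log2 difference 1.18 ± 0.14, adjusted p = 1.27e-05). ATP synthase genes fell in 3 of 15 cases, near the 18.8% of all genes, and mitochondrial ribosomal protein genes in 31 of 71 (median -0.30). None of the 6 tested mitochondrially encoded genes was called, with log2 differences of -0.29 to 0.86. Of 18 tested glycogen and trehalose genes 2 rose and 4 fell, 11.1% and 22.2%, against 18.0% and 18.8% of all tested genes. The glycogen genes GSY1 (log2 difference -1.23 ± 0.24, adjusted p = 0.00111) and GLG1 (log2 difference -1.18 ± 0.20, adjusted p = 0.000337) fell, and TSL1 and TPS2, of trehalose synthesis, rose by 0.47 and 0.45.

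Cytosolic ribosomal protein genes rose in 51 of 137 cases and none fell, with a median of 0.53 and slide medians of 0.63, 0.77 and 0.21. Many of them exist as near-identical pairs that may share signal. Ribosome assembly genes rose in 25 of 43 cases with no fall (median 0.49), led by NOP7 (log2 difference 1.62 ± 0.25, adjusted p = 0.000122), NSR1 (log2 difference 1.23 ± 0.26, adjusted p = 0.00156) and RRP12 (log2 difference 1.20 ± 0.17, adjusted p = 8.5e-05), and 8 of 19 genes of RNA polymerases I and III rose, RPA135 most (log2 difference 0.92 ± 0.22, adjusted p = 0.00488). Translation factor genes stayed mostly uncalled, with 2 rises of 37, in YEF3 (log2 difference 0.97 ± 0.29, adjusted p = 0.0161) and GCD6 (0.33). Cytosolic tRNA synthetase genes had 2 falls of 19, TYS1 (-0.61) and GUS1 (-0.39).

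Histone genes fell in 10 of 11 cases (median -0.80, slide medians -0.84, -0.86 and -0.96). HTB2, an H2B gene, had log2 ratios of -1.17, -1.31 and -1.18 in statin cultures, against 0.42, 0.28 and 0.81 in untreated cultures (log2 difference -1.72 ± 0.15, adjusted p = 4.52e-07), and HTA2 (log2 difference -1.52 ± 0.12, adjusted p = 2.5e-07) was close behind. CSE4, the centromeric variant, was not called (log2 difference 0.26 ± 0.10, adjusted p = 0.0574), but passed with the block (adjusted p = 0.0327). Cyclins and other cell cycle genes had 12 falls and 1 rise of 20. The mitotic cyclin gene CLB2 had log2 ratios of -0.61, -0.01 and -0.29 in statin cultures, against 0.28, 0.71 and 0.39 in untreated cultures (log2 difference -0.76 ± 0.17, adjusted p = 0.00321) and CLB1 fell too (log2 difference -0.99 ± 0.12, adjusted p = 2.19e-05). Of the G1 cyclin genes CLN1 fell (log2 difference -0.52 ± 0.14, adjusted p = 0.0102), CLN2 was not called (log2 difference -0.25 ± 0.22, adjusted p = 0.385) and CLN3 was not called (log2 difference -0.21 ± 0.11, adjusted p = 0.158, 2 of 3 statin arrays). FAR1, which encodes an inhibitor of G1 cyclin-dependent kinase, rose (log2 difference 0.62 ± 0.12, adjusted p = 0.00124). Genes that separate daughter cells, transcribed at the end of mitosis, fell in 6 of 10 cases, SUN4 most (log2 difference -1.20 ± 0.15, adjusted p = 2.58e-05). DNA replication genes had 5 falls and 2 rises of 22, 22.7% and 9.09%, against 18.8% lower and 18.0% higher over all tested genes. Cells were not synchronised as far as the labels say, so a level per gene cannot be told apart from a share of cells in a phase.

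Cell wall integrity signalling acts through the Slt2 kinase and the transcription factor Rlm1. PRM5, a target of the pathway, had log2 ratios of 0.87, 0.69 and 0.78 in statin cultures, against -1.61, -1.68 and -1.71 in untreated cultures (log2 difference 2.45 ± 0.13, adjusted p = 5.19e-09), and SLT2 (log2 difference 1.23 ± 0.12, adjusted p = 1.56e-06), the phosphatase gene PTP2 (log2 difference 1.28 ± 0.08, adjusted p = 2.59e-08) and KDX1 (log2 difference 0.95 ± 0.09, adjusted p = 1.51e-06) rose. 8 of 22 tested genes rose and 2 fell, WSC4 (log2 difference -1.30 ± 0.12, adjusted p = 1.31e-06, 2 of 3 statin arrays) and WSC2 (log2 difference -0.45 ± 0.17, adjusted p = 0.0492), both genes of wall sensors. Among wall mannoprotein genes PIR3 had log2 ratios of 0.29, -0.15 and 0.29 in statin cultures, against -2.95, -2.65 and -2.73 in untreated cultures (log2 difference 2.92 ± 0.27, adjusted p = 1.23e-06), NCW2 (log2 difference 2.42 ± 0.16, adjusted p = 3.84e-08) and the yapsin genes YPS1 (log2 difference 1.66 ± 0.22, adjusted p = 2.98e-05) and YPS3 (log2 difference 1.43 ± 0.19, adjusted p = 4.01e-05) rose, and TIP1 (log2 difference -2.14 ± 0.25, adjusted p = 9.08e-06, 2 of 3 statin arrays), CCW12 (-0.82) and CWP2 (-0.80) fell. CHS1, the chitin synthase gene of septum repair, rose (log2 difference 1.63 ± 0.10, adjusted p = 2.59e-08), as did CRH1, a chitin transglycosylase gene (log2 difference 1.15 ± 0.18, adjusted p = 0.000153), while the glucan remodelling genes GAS1 (log2 difference -0.80 ± 0.20, adjusted p = 0.00658), GAS3 (log2 difference -0.71 ± 0.13, adjusted p = 0.000472) and GAS5 (log2 difference -0.65 ± 0.13, adjusted p = 0.00113) fell. In GPI anchor synthesis MCD4 fell most (log2 difference -1.42 ± 0.37, adjusted p = 0.00708) and GPI18 rose (log2 difference 1.37 ± 0.10, adjusted p = 6.34e-08), and among mannosyltransferase genes MNN4 fell most (log2 difference -2.48 ± 0.61, adjusted p = 0.00543).

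Heat shock and chaperone genes rose in 14 of 27 cases with 1 fall (median 0.55), among them SSA3, HSP30, HSP104 and STI1. SSA3, an Hsp70 gene, had log2 ratios of 1.61, -0.44 and 1.03 in statin cultures, against -1.53, -1.45 and -1.33 in untreated cultures (log2 difference 2.17 ± 0.38, adjusted p = 0.00041), and HSP104, the disaggregase gene, had log2 ratios of 1.06, 0.70 and 0.97 in statin cultures, against -0.39, -0.26 and -0.26 in untreated cultures (log2 difference 1.21 ± 0.18, adjusted p = 0.000103). The statin replicates of SSA3 spread more than those of HSP104. HSP31 was the member that fell (log2 difference -0.84 ± 0.22, adjusted p = 0.00735). Genes of protein folding in the endoplasmic reticulum moved the other way, with 9 falls of 21. The nucleotide exchange factor gene SIL1 (log2 difference -1.25 ± 0.29, adjusted p = 0.00365), the disulfide isomerase genes MPD1 (log2 difference -1.21 ± 0.29, adjusted p = 0.00426) and PDI1 (log2 difference -0.88 ± 0.24, adjusted p = 0.0099) and the oxidase gene ERO1 (log2 difference -1.03 ± 0.32, adjusted p = 0.019) fell, and the sensor kinase gene IRE1 rose (log2 difference 0.41 ± 0.13, adjusted p = 0.0244). HSP12, a small heat shock gene and general stress reporter, was not called (log2 difference -0.48 ± 0.44, adjusted p = 0.416), and of 21 tested genes of the general stress list 4 rose and 2 fell, near the share of all genes. CTT1, the cytosolic catalase gene, fell (log2 difference -1.04 ± 0.31, adjusted p = 0.0169). TSA2, an inducible peroxiredoxin gene, rose (log2 difference 2.12 ± 0.24, adjusted p = 6.61e-06), whereas TSA1 (log2 difference -0.97 ± 0.16, adjusted p = 0.000241) and the cytochrome c peroxidase gene CCP1 (log2 difference -1.11 ± 0.20, adjusted p = 0.00054) fell. Of 23 tested genes of the oxidative stress and thioredoxin list 2 rose and 4 fell, 8.7% and 17.4%, against 18.0% and 18.8% of all tested genes. RPN4, the gene of the activator of proteasome genes, rose (log2 difference 0.86 ± 0.22, adjusted p = 0.00619), but among all 33 tested genes of that list 2 rose and 1 fell.

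Metal genes were examined because all cultures held EDTA. Among 31 iron genes 8 rose and 1 fell, 25.8% and 3.23%, against 18.0% and 18.8% of all tested genes. FRE7, a copper-regulated metalloreductase gene, had log2 ratios of 1.96, 0.50 and 1.24 in statin cultures, against -1.37, -0.90 and -1.38 in untreated cultures (log2 difference 2.45 ± 0.30, adjusted p = 1.9e-05), measured on 2 of 3 untreated arrays, and HMX1, the heme oxygenase gene, rose (log2 difference 1.13 ± 0.22, adjusted p = 0.00109). FET3, the multicopper ferroxidase gene of high-affinity iron uptake, had log2 ratios of 0.90, 0.58 and 1.0 in statin cultures, against 0.85, 0.69 and 0.77 in untreated cultures and was not called (log2 difference 0.06 ± 0.18, adjusted p = 0.831). The metallothionein gene CUP1-1 (log2 difference 0.80 ± 0.29, adjusted p = 0.0424) and its activator gene CUP2 (log2 difference 1.26 ± 0.10, adjusted p = 2.67e-07) rose, and CTR1, the copper transporter gene, was not called (log2 difference -0.09 ± 0.25, adjusted p = 0.809). CUP1-2 is a copy of CUP1-1 and shares its signal. Of 14 tested copper genes 4 rose and 3 fell, 28.6% and 21.4%, against 18.0% and 18.8% of all tested genes. The zinc list shares ADE17 with the purine list, and its log2 difference of -3.81 was the lowest in both. Zinc genes fell in 10 of 19 cases, 52.6% against 18.8% of all tested genes. The activator gene ZAP1 (log2 difference -0.88 ± 0.19, adjusted p = 0.00204), the high-affinity zinc transporter gene ZRT1 (log2 difference -0.70 ± 0.16, adjusted p = 0.00344) and ZPS1 (log2 difference -1.88 ± 0.20, adjusted p = 3.54e-06) were among them. Genes of polyphosphate synthesis, VTC3 (log2 difference -1.19 ± 0.23, adjusted p = 0.000896), VTC1 (log2 difference -0.81 ± 0.15, adjusted p = 0.000768) and VTC4 (log2 difference -0.69 ± 0.20, adjusted p = 0.0158), fell, and PHO81 and PHM7 rose by 0.49 and 0.64. Of 23 tested phosphate genes 4 rose and 7 fell, 17.4% and 30.4%, against 18.0% and 18.8% of all tested genes.

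Drug transporter genes were examined because PDR5 is deleted in both groups. PDR10, a paralogue of PDR5, had log2 ratios of 2.05, 0.50 and 1.41 in statin cultures, against -0.95, -0.85 and -1.16 in untreated cultures, a 4.96-fold rise (log2 difference 2.31 ± 0.28, adjusted p = 1.56e-05). The acyltransferase gene ICT1 (log2 difference 1.50 ± 0.19, adjusted p = 2.58e-05) and the polyamine transporter genes TPO2 (log2 difference 1.45 ± 0.22, adjusted p = 0.000134) and TPO1 (log2 difference 0.74 ± 0.13, adjusted p = 0.000488) rose, and PDR12, the weak acid exporter gene, had log2 ratios of -1.58, -1.73 and -1.89 in statin cultures, against 0.62, 0.83 and 0.81 in untreated cultures and fell (log2 difference -2.49 ± 0.18, adjusted p = 8.35e-08). The multidrug transporter gene QDR2 fell as well (log2 difference -1.48 ± 0.15, adjusted p = 1.82e-06). PDR3, the gene of a drug resistance activator, was not called (log2 difference 0.17 ± 0.12, adjusted p = 0.29). Of 23 tested members 6 rose and 5 fell, 26.1% and 21.7%, not far from the 18.0% and 18.8% of all tested genes. The sodium pump gene ENA1 rose (log2 difference 0.69 ± 0.20, adjusted p = 0.0157), and the proton pump gene PMA1 was not called (log2 difference -0.50 ± 0.27, adjusted p = 0.158), but passed as lower with the block (adjusted p = 0.00881).

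Several of the greatest rises fell outside these groups. SET4, a SET-domain gene known from anaerobic cells, had log2 ratios of 1.82, 1.84 and 2.09 in statin cultures, against -3.06, -2.78 and -3.05 in untreated cultures (log2 difference 4.88 ± 0.24, adjusted p = 2.17e-09), and RTA1, a gene named for resistance to an aminocholesterol, had log2 ratios of 1.97, 2.10 and 2.19 in statin cultures, against -2.46, -2.25 and -2.57 in untreated cultures (log2 difference 4.51 ± 0.28, adjusted p = 2.28e-08). Both were measured on 2 of 3 untreated arrays. SPS100, a spore wall gene, had log2 ratios of 2.29, -0.73 and 1.02 in statin cultures, against -2.62, -2.83 and -2.95 in untreated cultures (log2 difference 3.66 ± 0.51, adjusted p = 6.21e-05), and its statin replicates differed by over 2 log2 units. SHH3 (log2 difference 2.89 ± 0.43, adjusted p = 0.000108), a homologue of a succinate dehydrogenase subunit gene, and YPL088W (log2 difference 2.76 ± 0.13, adjusted p = 1.31e-09), a predicted aryl alcohol dehydrogenase gene, also rose.

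**Figure D4:**
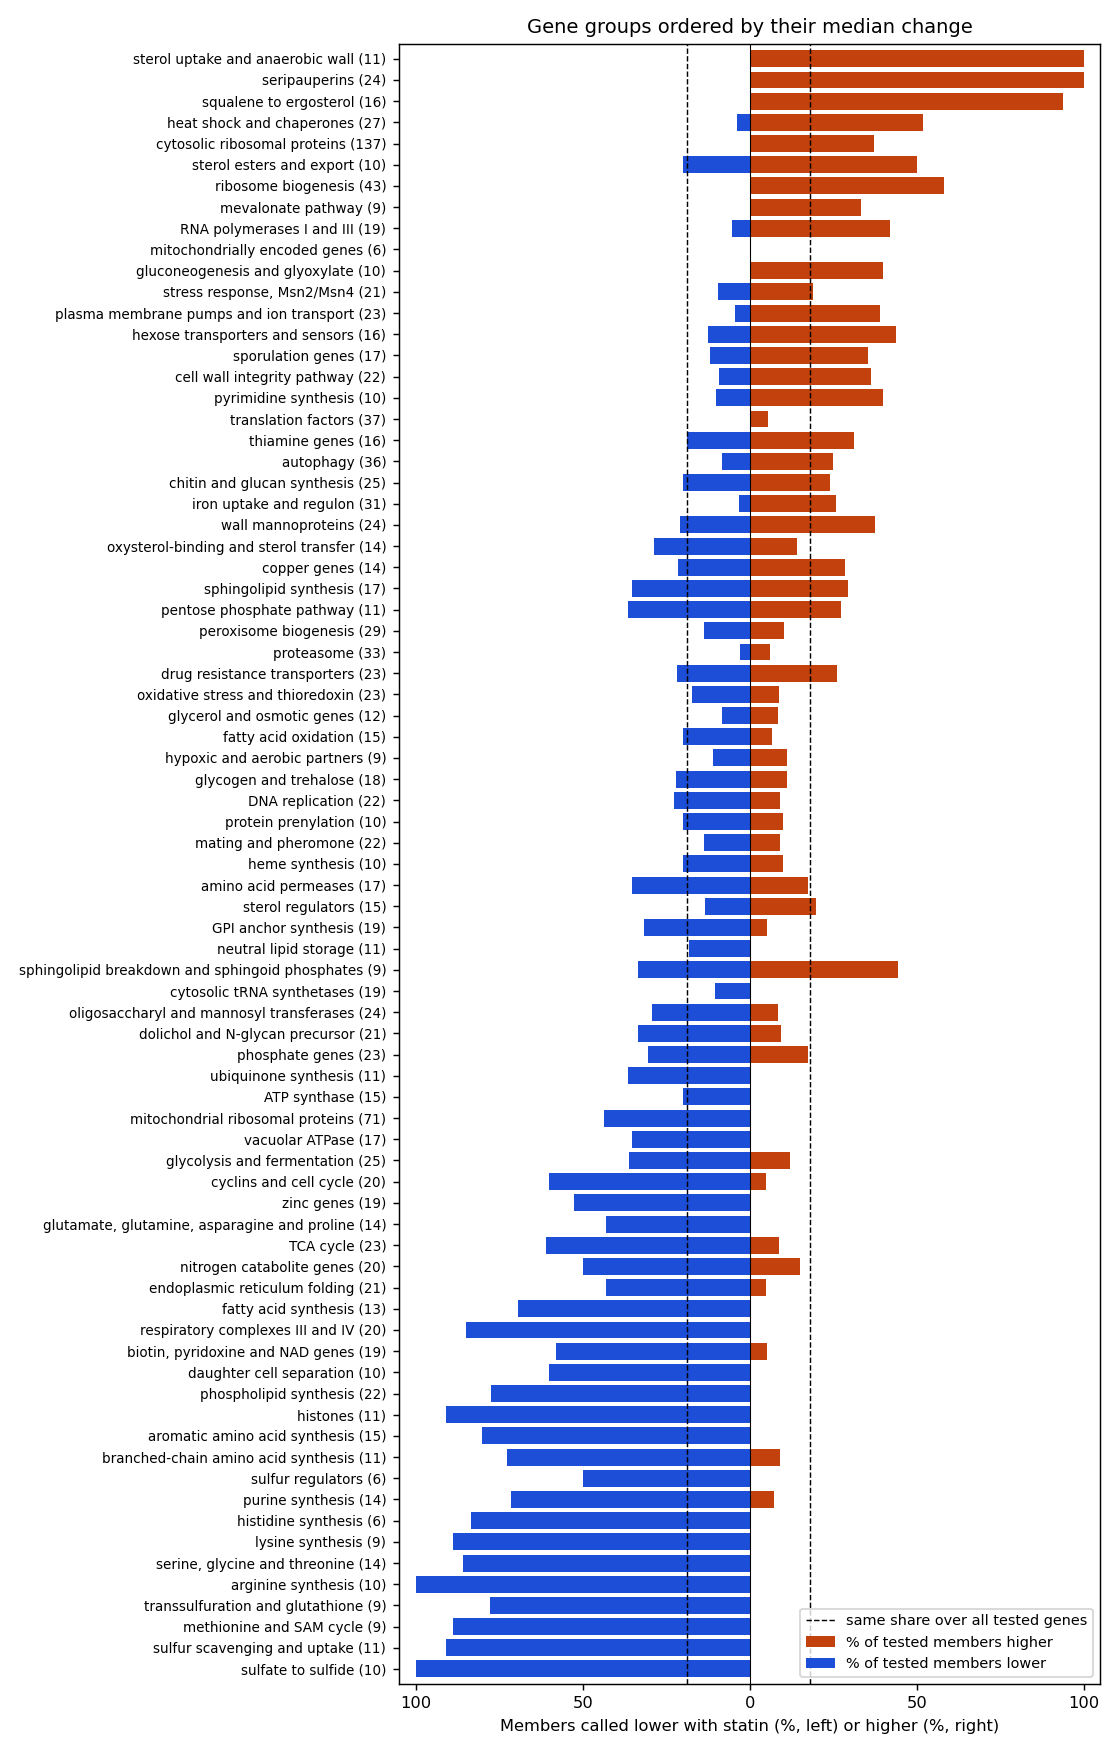
Each bar gives the percent of the tested members of a gene group (number in brackets) called higher with statin, to the right in orange, or lower, to the left in blue, with groups ordered by their median log2 difference and dashed lines at the 18.0% and 18.8% over all tested genes. Sterol uptake, seripauperin and ergosterol groups are at the top with nearly all members higher, and sulfur, arginine and serine groups are at the bottom with nearly all lower.

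The change with statin was then set beside that in metal-supplied cells, statin with CuSO4 (3 samples) against CuSO4 (3) and statin with ZnSO4 (2) against ZnSO4 (3), which share no sample with the comparison without metal. In each pair the statin group had again been exposed beforehand, and the densities differed as above. With CuSO4 2485 genes were called (44.3%), and 1066 of them were also called in the same direction without metal, which is 42.9% of the calls with CuSO4 and 51.6% of those without. Another 182 were called in both settings in opposite directions, 162 of them higher without metal. With ZnSO4 1603 were called (28.6%), and 1193 were shared in direction, 74.4% of the calls with ZnSO4 and 57.8% of those without, while 7 were called in opposite directions. Tested as a difference of effects, the change with statin differed with CuSO4 for 1034 genes (18.4%) and with ZnSO4 for 58 (1.03%). The count with ZnSO4 was 103 with the replicate number as a block, 98 without statin replicate 2, 29 without statin replicate 3, and 34, 32 and 28 without untreated replicates 1, 2 and 3. Without the statin with CuSO4 replicate 2 it was 80.

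Ergosterol synthesis and part of the uptake genes were higher with statin in all 3 settings. The log2 difference of UPC2 was 2.50 with CuSO4, 2.59 with ZnSO4 and 2.54 without metal. That of HES1 was 4.96 with CuSO4, 4.61 with ZnSO4 and 5.19 without metal. The median of the ergosterol list was 1.32 with CuSO4, 1.25 with ZnSO4 and 1.08 without metal. The statin effect differed with CuSO4 for 5 of its 16 genes and with ZnSO4 for 0. In the sterol uptake and anaerobic wall list the median was 1.54 with CuSO4, 1.47 with ZnSO4 and 2.68 without metal, and the effect differed for 4 of its 11 genes with CuSO4 and for 3 with ZnSO4. AUS1 was one of them, at 0.09 with CuSO4, 0.47 with ZnSO4 and 2.72 without metal, and both differences of effect passed (adjusted p = 2.14e-06 and 4.15e-05). PDR11, the other importer gene, was another, at 1.54 with CuSO4 and 1.65 with ZnSO4 against 2.68 without metal (adjusted p of the difference = 0.00114 and 0.0266).

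In sulfur and ribosomal genes the statin effect with CuSO4 differed from that without metal. Whether it differed between CuSO4 and ZnSO4 was not tested. In the list from sulfate to sulfide the median statin effect was 0.79 with CuSO4, -1.83 with ZnSO4 and -4.14 without metal. The effect differed for all 10 genes with CuSO4 and for 0 with ZnSO4, where the statin group had 2 samples. The standard errors of these genes use the spread of all 17 samples, so the 0 with ZnSO4 does not show that the effects were equal. With CuSO4 the log2 difference of SUL1 was 2.23 and was not called (adjusted p = 0.0803), whereas SUL1 fell with ZnSO4 and without metal, with log2 differences of -4.66 and -5.99. The statin with CuSO4 replicate 2 stood apart from its group in sulfur genes. Without it the difference of effects for SUL1 was 9.67, against 8.22 with it. Cytosolic ribosomal protein genes had a median of -1.17 with CuSO4, 0.53 with ZnSO4 and 0.53 without metal, and the effect differed with CuSO4 for 133 of 137 genes and with ZnSO4 for 0. The log2 difference of TAT1 was -1.91 with CuSO4 and 2.20 without metal (adjusted p of the difference of effects = 0.000551).

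**Figure D5:**
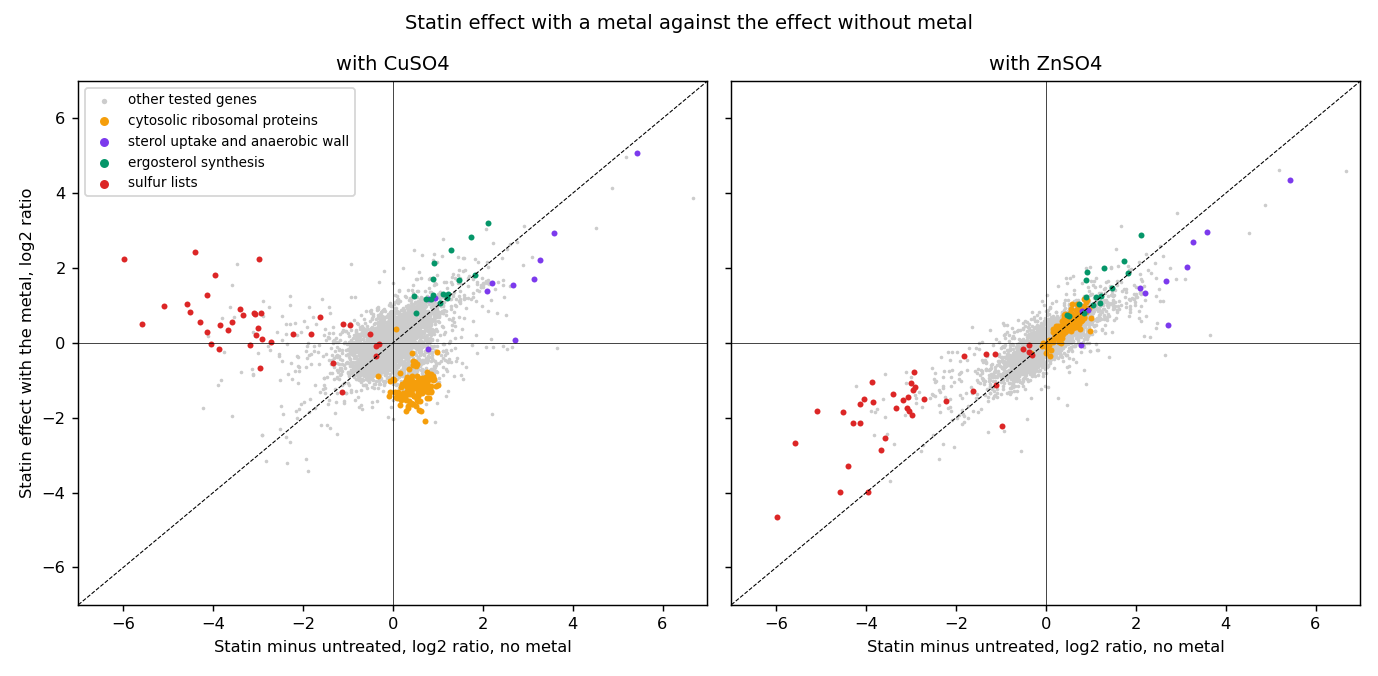
The log2 statin effect of each tested gene with CuSO4 (left) or ZnSO4 (right) is plotted against its effect without metal, with the dashed line marking equal effects and coloured points for the sulfur, ergosterol, sterol uptake and ribosomal protein lists. Ergosterol genes lie near or above the line in both panels, sulfur genes lie far above it with CuSO4 and nearer to it with ZnSO4, and ribosomal protein genes lie below it with CuSO4 only.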

How the data were processed

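RNA of 3 statin and 3 untreated cultures was measured on 6 of 23 arrays, grouped by the labels. Spot values were made by the authors in Agilent Feature Extraction, version 10.5.1.1, as the submitters' processing notes state. For each spot the deposited files give median intensity, background intensity and processed signal, per the file headers, which name the build sacCer1. In the authors' deposited value table are the log10 ratios of those files with the sign turned, equal within 5e-06. Labels give Cy3 for samples and Cy5 for the reference, with no dye swap, so a probe's dye bias cancels between groups.

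From the median intensity in the deposited files, background was corrected with normexp (offset 50), arrays were normalized by loess (control spots at weight 0) and ratios were taken as log2 sample over reference. The 2 spots of a probe were averaged, then arrays of one biological sample. Of 6256 genes, 5606 had both spots well above background throughout the arrays of 1 group or more and were tested. No spot was saturated, and 2 values were missing in the 6 samples. All 17 biological samples in 6 groups were fitted in limma 3.58.1 (R 4.3.3), with 11 residual degrees of freedom and Benjamini-Hochberg adjusted p under 0.05, two-sided. Summaries used Python 3.11.15 with pandas 2.3.3 and numpy 2.4.6. The fit was tested on simulated data. Precision is limited by 3 samples per group, whose separate origin beyond the word replicate the labels do not state, so p-values measure the spread between these samples.

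Names of 5756 genes matched the R64 assembly in RefSeq, used for names and gene order. Same-numbered statin and untreated samples deviated together at r = 0.155, 0.259 and -0.035 over genes, and differently numbered ones at -0.238 to 0.107. These values do not settle whether the numbers pair the samples. The main fit left the replicate number, and so the slide, out. With it as a block all 2065 calls were kept, with 1271 genes higher and 1372 lower. Alternatives were other background, normalization, filter and value-table settings, a replicate block, and samples left out.

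The 77 gene lists and the genes named were chosen with earlier results of these data known. Named genes were the 15 greatest rises and falls, the 4 greatest called rises and falls of each list, any member of lists under 12 tested, fixed anchor genes, strain checks, and the 10 greatest differences of statin effect of each sign per metal among called genes.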

Additional observations from a re-analysis of the deposited data

Results flagged for a closer look

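The statin effect differed between cells with CuSO4 and cells without metal for 1034 genes, by a test of the difference itself. Of these, 621 were also called with statin alone, and in 584 of them the difference ran against the change without metal. The change without metal is subtracted in this difference, so that direction is largely built in for genes called with statin alone. Genes whose effect was lower with CuSO4 included the permease gene TAT1, the importer gene AUS1, the RNA helicase gene DBP2 and the CTP synthase gene URA7. On the log2 scale, the effect with CuSO4 minus that without metal was -4.10 for TAT1, -3.81 for SPS100, -2.82 for YMR317W, -2.74 for YKR104W, -2.70 for YBR116C, -2.64 for AUS1, -2.60 for DBP2, -2.60 for URA7, -2.53 for FRE7 and -2.53 for VHR2. The 10 greatest among those whose effect was higher with CuSO4 were mostly sulfur genes, with differences of 8.22 for SUL1, 6.83 for JLP1, 6.10 for MET3, 6.08 for SUL2, 5.77 for YCT1, 5.62 for SEO1, 5.57 for PDC6, 5.42 for MET10, 5.34 for MET5 and 5.21 for AGP3. Without the statin with CuSO4 replicate 2, which stood apart in sulfur genes, the difference was 9.67 for SUL1, 7.50 for MET3 and -4.63 for TAT1.

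With ZnSO4 the statin effect differed for 58 genes, and in 47 of the 49 also called with statin alone the difference ran against the change without metal. As with CuSO4, that direction is largely built in. Lower effects with ZnSO4 were seen in sterol import, drug transport and sphingoid phosphate genes among others, with differences of -3.46 for SPS100, -2.96 for YKR104W, -2.26 for AUS1, -2.15 for PDR10, -2.08 for YMR317W, -2.06 for FRE7, -2.00 for AAD10, -1.49 for PAU5, -1.37 for YSR3 and -1.20 for MIG3. The 10 greatest of the higher effects with ZnSO4 were mostly in amino acid genes, with differences of 3.08 for ARG1, 2.75 for ARG3, 2.56 for SAM3, 2.35 for ARG56, 2.09 for ARG4, 2.07 for LEU4, 2.06 for HIS4, 1.95 for FDH2, 1.95 for YPL276W and 1.93 for HOM3. FDH2 and YPL276W are parts of one formate dehydrogenase gene copy and may share signal. These comparisons hold 2 statin samples with ZnSO4, and the count of 58 was 103 with the replicate number as a block, 98 without statin replicate 2, 29 without statin replicate 3, and 34, 32 and 28 without untreated replicates 1, 2 and 3.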

How the results depend on the processing

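The counts of 1009 higher and 1056 lower genes stayed within 1.5 times under every alternative run, from 794 to 1271 higher and from 847 to 1372 lower. With the replicate block, each replicate number being 1 slide, 1271 genes were higher and 1372 lower, and all 2065 calls were kept. The block added calls for 8 named genes, ARE2, CSE4, ERG10, GSH2, MET31, PMA1, SAH1 and THI4 (for THI4 adjusted p = 0.031). In the 6 samples alone 1919 calls were kept, and 1900 with the replicate block as well, a fit chosen after seeing the data. The Feature Extraction signals kept 1924, median centring 1814, the deposited values 1926 and the filter on both groups 1761. Fits without a single statin or untreated culture kept 1605 to 1773. The count of genes whose statin effect differed with ZnSO4 was less stable. It was 58, against 103 with the replicate block and 28 to 98 when single cultures were left out, where 98 is without statin replicate 2, 29 without statin replicate 3, and 34, 32 and 28 without untreated replicates 1, 2 and 3. Without the statin with CuSO4 replicate 2 it was 80. With CuSO4 the count was 1034, against 1461 with the replicate block, 839 to 949 without single statin or untreated cultures and 1387 without the statin with CuSO4 replicate 2. The causes were not tested. No called gene named here reversed direction in any alternative. Outside the left-out cultures 15 of 244 lost their call in at least 1 alternative, among them LEU3, WSC2, RAM2, BTS1, OSH7 and YEH2, and PMA1, ARE2 and MET31 passed in the fit on the 6 samples alone (adjusted p = 0.0402, 0.0306 and 0.0076). Of 24 lists with a median beyond 0.5, 0 changed sign. Probes dim on the third slide limit the bottom of the deepest falls.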

Other observations

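Replicates of the statin group differed most in a set of genes that was not a gene list. The SD of the 3 statin samples was over 0.5 log2 units for 113 genes, against 25 genes in the untreated samples, and 7 genes were in both sets. In 93 of the 113 genes statin replicate 1 was the highest of the 3, and in 88 replicate 2 was the lowest. Genes named here for this spread, after their values were seen, are GRE1, a stress gene with log2 ratios of 0.82, -1.88 and -0.80 in statin cultures, against -1.39, -1.44 and -1.55 in untreated cultures, the thiazole synthesis gene THI4 with 1.69, -0.50 and 0.43, against -0.64, -0.59 and -0.50 in untreated cultures, and the aquaporin gene AQY1 with 1.75, -0.13 and 0.98, against -0.49, -0.47 and -0.64 in untreated cultures. SPS100, SSA3 and OLE1 showed the same order of replicates. Of the 113 genes, 47 were called with statin.

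By gene order in the RefSeq table, neighbours shared large changes in some places. TIR4, TIR2 and AUS1 were consecutive tested genes, with log2 differences of 3.15, 0.80 and 2.72, and PDR11 and TIR3 were consecutive, with 2.68 and 3.27. SAM3, SAM4 and PBI1 were also consecutive but opposite in direction, with -4.06, -1.14 and 5.44. Among the 10 outermost tested genes of each nuclear chromosome end, leaving out seripauperins, 21.3% of 301 were higher and 22.6% lower, against 17.6% and 18.9% of 5116 other genes. The median size of the log2 difference was 0.36 at the ends and 0.27 elsewhere. These shares are descriptions without a test.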
